A study of Mus musculus with 10 samples.

Results

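AP-1 and immediate-early transcription factors were followed through the liver RNA-seq of germ-free (GF) mice, using 8 genes listed by name: *Jun*, *Junb*, *Jund*, *Fos*, *Fosl2*, *Atf3*, *Egr1* and *Maff*. Of these 8 genes, 7 had counts and were tested among the 12147 genes tested in all, and *Fos* was not analysed here. The mice were wild-type C57BL/6 animals raised without any microbiota. GF+MEV mice received repeated oral doses, over several weeks, of microbiota-derived extracellular vesicles (MEV), the membrane particles that gut bacteria shed, purified from the gut content of other mice and suspended in PBS, and GF+PBS mice received PBS alone. Each group held 5 mice, with 1 whole-liver library per mouse, and the libraries held between 15746112 and 20523649 counts on genes. The labels number the mice and say nothing of cages or litters, so the p-values measure the spread between these 10 livers. In whole tissue, fewer cells of a type and less RNA per cell cannot be told apart.

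AP-1 is a transcription factor made of pairs of basic leucine zipper proteins, in which a Jun protein pairs with another Jun protein or with a Fos, ATF or MAF relative, and the pair binds short palindromes in promoters and enhancers. Many of its genes are immediate-early genes, which are switched on within minutes of a stimulus from factors already present in the cell. The RNAs of such genes decay quickly. In the liver they are known for their rise in regeneration, stress and the switch between feeding and fasting, and JUN is required for normal hepatocyte development and regeneration. EGR1, a zinc finger factor, belongs to the same early wave but binds GC-rich sites.

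The stretch just before the transcription start can carry sites through which such genes answer a stimulus. The 250 bases upstream of the RefSeq start (build GRCm38.p6) are shown for the genes with the largest rises, *Jun* and *Maff*. Those of *Junb*, which did not pass the test, are shown beside them. Whether any of these sites had a part in the rises was not tested. Capitals mark a match to TGACNTCA, a CRE-like motif bound by JUN paired with ATF proteins. The motif is a palindrome only where N is G. The *Jun* window lies at chr4:95052223-95052472 on the minus strand, one of the *Maff* windows at chr15:79347270-79347519 on the plus strand, and the *Junb* window at chr8:84978749-84978998 on the minus strand.
Jun: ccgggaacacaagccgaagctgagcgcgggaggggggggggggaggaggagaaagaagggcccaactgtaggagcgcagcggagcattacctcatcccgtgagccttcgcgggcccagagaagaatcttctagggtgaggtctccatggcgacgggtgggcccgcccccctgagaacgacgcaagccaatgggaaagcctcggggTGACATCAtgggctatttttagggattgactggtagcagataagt
Maff: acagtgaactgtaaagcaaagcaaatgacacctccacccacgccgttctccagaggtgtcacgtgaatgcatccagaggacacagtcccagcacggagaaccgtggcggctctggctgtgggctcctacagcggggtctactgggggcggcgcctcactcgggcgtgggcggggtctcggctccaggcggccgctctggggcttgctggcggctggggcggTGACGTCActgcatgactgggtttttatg
Junb: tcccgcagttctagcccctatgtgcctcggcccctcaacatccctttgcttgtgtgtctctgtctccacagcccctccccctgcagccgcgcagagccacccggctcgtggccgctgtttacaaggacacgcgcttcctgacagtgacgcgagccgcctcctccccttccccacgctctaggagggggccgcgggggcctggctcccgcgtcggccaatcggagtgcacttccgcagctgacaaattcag
The *Jun* match TGACATCA began 45 bases before the start and the *Maff* match TGACGTCA, which is also the full CRE, began 29 bases before it. The search read both strands of the windows upstream of all RefSeq starts, and 7.49% of the 32851 windows held TGACNTCA and 1.55% held TGACGTCA, which is contained in the first motif. A further *Maff* window, upstream of a start farther downstream, also held TGACATCA. The *Maff* window before the most upstream start, at chr15:79346371-79346620, held neither, nor did the windows of *Junb*, *Jund*, *Fosl2* and *Atf3*. In all, 8 windows of 6 genes were searched, 3 of them of *Maff*, and none of *Egr1* or *Fos*. The letters TGANTCA, the classical AP-1 element or TRE, were found in 6.75% of all windows and in none of these 8 windows, and the CArG box, the site of serum response factor, in 1.47% of all windows and in none of the 8. A CCAAT box, found in 33.8% of all windows, began 65 bases before the start of *Jun* and 36 bases before that of *Junb*. The GC box GGGCGG, found in 32.7% of all windows, was present in windows of *Jun*, *Maff*, *Fosl2* and *Atf3*, with 5 matches in that of *Atf3*. The GC content was 61.2% for *Jun*, 64.0% for the *Maff* window shown and 66.4% for *Junb*, against a median of 52.4% over all windows. *Atf3*, *Fosl2* and the further *Maff* window were also above that median, at 65.2%, 64.4% and 60.4%. The *Jund* window at 47.6% and the *Maff* window before the most upstream start at 48.0% were below it. The *Jund* window, chr8:70697489-70697738, does not adjoin the gene start used below, chr8:70698949. Its GC content and lack of matches therefore do not describe the bases just before that start. The same limit holds for *Atf3* and *Fosl2*. Their windows, chr1:191183334-191183583 and chr5:32136222-32136471, lie inside the gene spans given below, before RefSeq starts that differ from the gene starts.

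Levels are given as CPM, reads on a gene per 1000000 reads on genes after TMM scaling of the library. To ask which of these factors differed in the liver after MEV, counts were compared between GF+MEV and GF+PBS by the edgeR quasi-likelihood test with Benjamini-Hochberg adjustment over all tested genes, and a gene was called when the adjusted p was under 0.05. *Jun*, *Maff*, *Atf3* and *Jund* rose in GF+MEV livers, none fell, and *Junb*, *Fosl2* and *Egr1* did not pass the test. Of all tested genes, 7.64% were called in either direction and 4.12% were called higher. In those 4 genes the values of the groups did not overlap, whereas 3.94% of all tested genes were higher without overlap. The median log2 fold change was 0.67 over the 7 genes and -0.004 over all genes. The genes were chosen with earlier results of these data known, so these counts are descriptions.

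**Figure D1:**
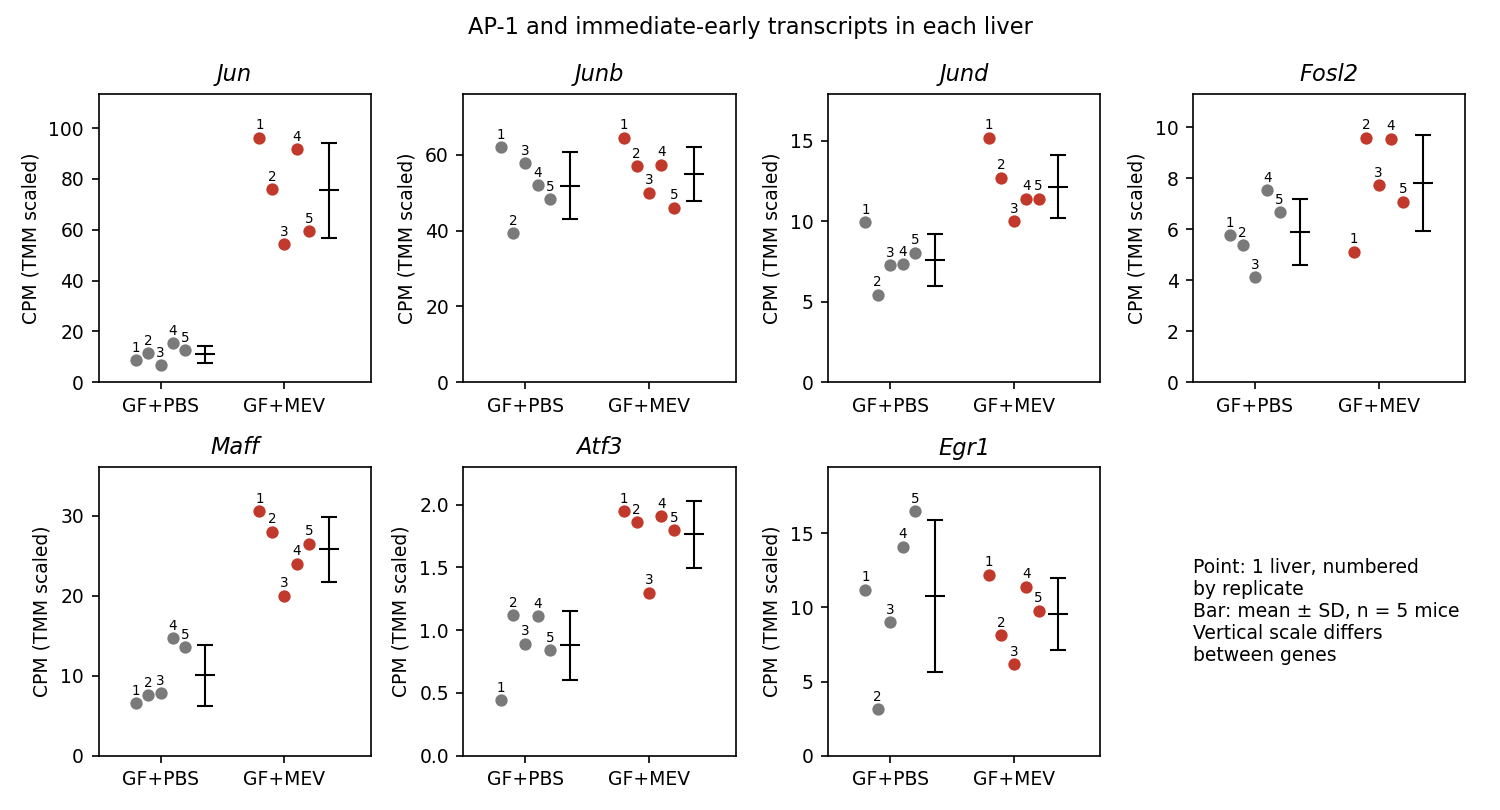
Level of each gene in each liver, in CPM (TMM scaled) on a linear vertical axis that starts at 0 and differs between genes, with GF+PBS in gray and GF+MEV in red, numbers for replicates and bars for the mean ± SD (n = 5 mice). The groups are apart for *Jun*, *Jund*, *Maff* and *Atf3*, and overlap for *Junb*, *Fosl2* and *Egr1*.

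*Jun* encodes c-JUN, the strongest activator among the Jun proteins, from a gene of 1 exon at chr4:95049034-95052222 on the minus strand (GRCm38). In GF+MEV replicates 1 to 5 its level was 96.3, 75.9, 54.2, 91.8 and 59.4 CPM. In GF+PBS replicates 1 to 5 it was 8.66, 11.3, 6.78, 15.3 and 12.7 CPM. Every GF+MEV liver was well above every GF+PBS liver, and the lowest treated liver held more than 3 times the CPM of the highest control. The mean was 75.5 ± 18.8 CPM in GF+MEV and 11 ± 3.35 CPM in GF+PBS (SD, n = 5), a 6.86-fold difference, or 2.78 on the log2 scale (SE 0.26, edgeR adjusted p = 7.9e-07). By size this was the 11th largest rise of all tested genes. The 95% interval of the difference in mean log2 CPM, from the exact permutation test over all 252 labelings, ran from 2.2 to 3.45. Each library held at least 114 reads on *Jun*, so its level was well sampled in both groups. An antisense gene, *Junos*, overlaps 232 of the 3189 exonic bases of *Jun*, and reads of the pair cannot be told apart where counting did not use strand, which the sources used here do not give.

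*Jund* encodes JUND, the Jun protein that resting cells usually hold and that often restrains growth, from 1 exon at chr8:70698949-70700616 on the plus strand. Its level was 15.2, 12.7, 10, 11.4 and 11.4 CPM in GF+MEV replicates 1 to 5. Among GF+PBS replicates 1 to 5 it was 9.94, 5.44, 7.26, 7.33 and 8.05 CPM. The groups were apart but nearly met, since GF+MEV replicate 3 was just above GF+PBS replicate 1. The mean was 12.2 ± 1.94 against 7.60 ± 1.62 CPM (SD, n = 5), or 0.67 on the log2 scale (SE 0.17, edgeR adjusted p = 0.012). The interval of the difference in log2 CPM was 0.32 to 1.05. An antisense gene, *Gm11175*, overlaps 877 of the 1668 exonic bases of *Jund*. The level of *Jund* could therefore include reads of that gene or lack reads dropped as shared. The sources used here do not give the strand setting that would decide this.

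*Junb* encodes JUNB, a weaker activator that can oppose JUN, at chr8:84974484-84978718 on the minus strand. Its level was 64.6, 57.1, 50.0, 57.4 and 46.1 CPM in GF+MEV replicates 1 to 5. In GF+PBS replicates 1 to 5 it was 62.1, 39.3, 57.9, 52.0 and 48.3 CPM. The values of the groups were interleaved, with GF+PBS replicate 2 the lowest of all 10 livers. The log2 fold change was 0.08 (SE 0.14, edgeR adjusted p = 0.74), and the interval of the difference in log2 CPM, -0.22 to 0.42, does not reach the size seen for *Jun*. Its exons overlap those of *Prdx2* on the opposite strand over 173 bases, and *Prdx2* held 74.9 ± 5.30 and 75.8 ± 6.09 CPM (SD, n = 5).

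Per kilobase of exon, which allows levels of different genes to be set side by side, the order in GF+PBS livers was *Junb* at 22.6 ± 3.84, *Jund* at 4.56 ± 0.973 and *Jun* at 3.44 ± 1.05 CPM per kilobase (SD, n = 5). In GF+MEV livers *Junb* at 23.9 ± 3.12 and *Jun* at 23.7 ± 5.89 were within their spread of each other, and *Jund* stood at 7.29 ± 1.16. The composition of the Jun family was examined after these values had been seen. *Jun* made up 11.5 ± 4.05% of Jun family transcripts in GF+PBS (range 6.72 to 15.1%) and 42.7 ± 3.65% in GF+MEV (range 38.0 to 47.5%). *Junb* made up 73.6 ± 3.88% and 43.9 ± 2.92% of them in GF+PBS and GF+MEV. The groups were apart in both shares (two-sided exact permutation p = 0.00794 each, the smallest that 5 mice against 5 allow). The share of *Jund*, 14.8 ± 1.5% in GF+PBS and 13.4 ± 1.35% in GF+MEV, did not pass (exact p = 0.127). The family sum rose from 30.6 ± 4.30 to 54.9 ± 9.76 CPM per kilobase (exact p = 0.00794), and the livers of the groups did not overlap.

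**Figure D2:**
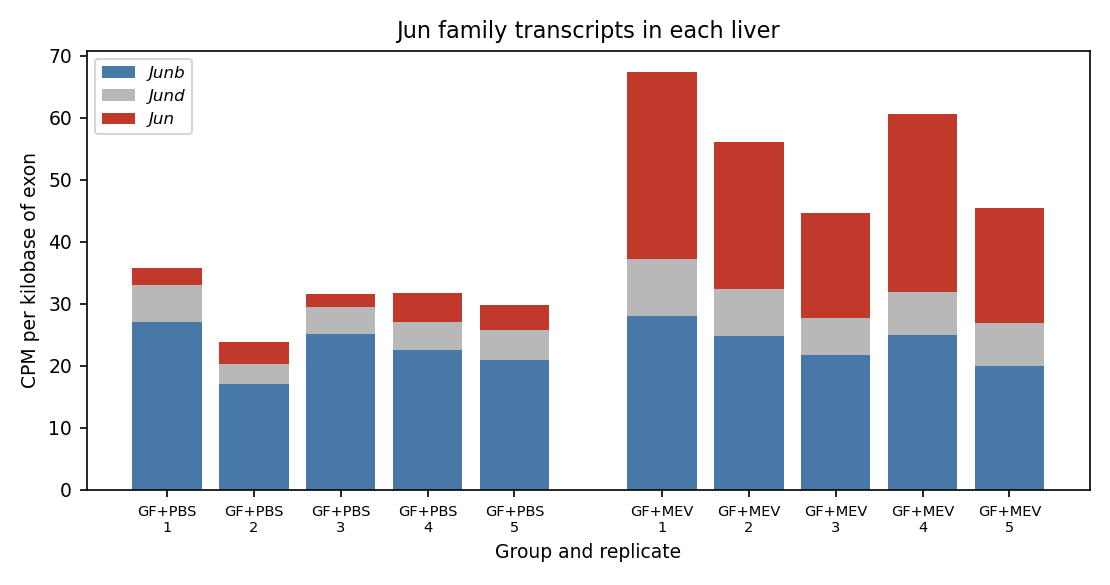
Jun family transcripts in each liver as stacked bars, in CPM per kilobase of exon, with *Junb* in blue, *Jund* in gray and *Jun* in red. The blue part runs from 17.1 to 28.1 CPM per kilobase and overlaps between the groups, and the red part is a small share in GF+PBS and 38.0 to 47.5% of the bar in GF+MEV.

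Ratios within a liver do not depend on how the library was scaled, and 4 were compared between the groups. The log2 ratio of *Jun* to *Junb* was -2.27 ± 0.63 in GF+PBS and 0.43 ± 0.21 in GF+MEV (SD, n = 5), a difference of 2.7 with an interval of 2.08 to 3.48. The livers ranged from -3.07 to -1.76 in GF+PBS and from 0.12 to 0.68 in GF+MEV, and since the ratio is of CPM, the lengths of the genes cancel only in the difference. The log2 ratio of *Jun* to *Jund* differed by 2.11 (interval 1.42 to 2.85). The ratios of *Jun* to *Maff* and of *Jun* to *Egr1*, added after the values had been seen, differed by 1.37 (interval 0.87 to 1.84) and 2.82 (interval 1.82 to 3.52). The ratio of *Jun* to each of these 4 genes was thus higher in GF+MEV livers (exact permutation p = 0.00794 for each ratio, and 0.00794 after adjustment over the 4). This p is the smallest that 5 mice against 5 allow. All 4 ratios share *Jun*, whose groups did not overlap, so they are not separate evidence of its rise.

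**Figure D3:**
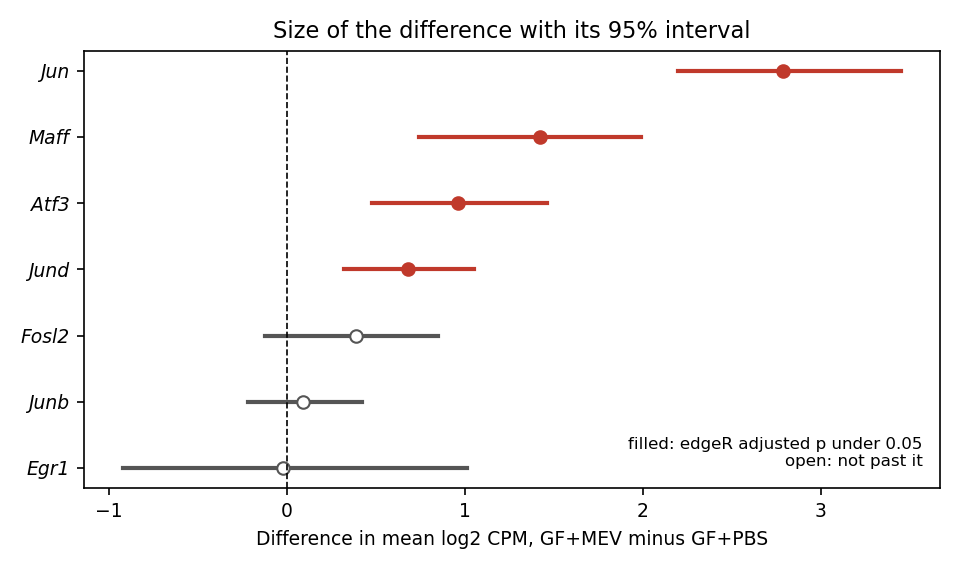
Difference in mean log2 CPM between GF+MEV and GF+PBS for each gene, with bars for the 95% interval from the exact permutation test (n = 5 mice per group) and filled points where the edgeR adjusted p is under 0.05. The intervals of *Jun*, *Maff*, *Atf3* and *Jund* lie above 0, and those of *Fosl2*, *Junb* and *Egr1* include it.

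*Maff* encodes a small MAF protein, which lacks a transactivation domain and pairs with CNC and other leucine zipper factors, from chr15:79346621-79359076 on the plus strand. Its level was 30.6, 28.0, 20, 24 and 26.5 CPM in GF+MEV replicates 1 to 5. The GF+PBS replicates 1 to 5 held 6.55, 7.57, 7.80, 14.7 and 13.6 CPM. All GF+MEV livers were above all GF+PBS livers, and among the controls replicates 4 and 5 stood above the other three. The mean was 25.8 ± 4.03 against 10 ± 3.81 CPM (SD, n = 5), a 2.56-fold difference, or 1.36 on the log2 scale (SE 0.26, edgeR adjusted p = 0.00063). The interval of the difference in log2 CPM was 0.74 to 1.99.

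*Atf3* encodes a stress-induced leucine zipper factor that pairs with Jun proteins and, as a homodimer, represses transcription, from chr1:191170296-191218039 on the minus strand. Its level was low, at 1.95, 1.86, 1.30, 1.91 and 1.80 CPM in GF+MEV replicates 1 to 5. In GF+PBS replicates 1 to 5 it was 0.444, 1.12, 0.893, 1.11 and 0.841 CPM. The groups did not overlap, and the treated liver nearest to the controls was again replicate 3. These values rest on 27 to 34 reads per GF+MEV library and 8 to 22 per GF+PBS library, so counting error is a larger part of their spread than for *Jun*. The mean was 1.77 ± 0.264 against 0.882 ± 0.275 CPM (SD, n = 5), or 0.98 on the log2 scale (SE 0.23, edgeR adjusted p = 0.021), with an interval of the difference in log2 CPM of 0.48 to 1.46.

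*Fosl2* encodes FRA-2, a Fos relative that pairs with Jun proteins, from chr5:32135801-32157842 on the plus strand, and was the Fos family gene measured here. Its level was 5.12, 9.59, 7.72, 9.54 and 7.07 CPM in GF+MEV replicates 1 to 5. The GF+PBS replicates 1 to 5 held 5.77, 5.38, 4.11, 7.53 and 6.67 CPM. The groups overlapped, since GF+MEV replicate 1 was below 4 of the 5 controls. The log2 fold change was 0.40 (SE 0.22, edgeR adjusted p = 0.22), and the interval of the difference in log2 CPM ran from -0.12 to 0.85.

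*Egr1* encodes the zinc finger factor of the early wave, from chr18:34859823-34864984 on the plus strand. Its level was 12.2, 8.14, 6.18, 11.4 and 9.77 CPM in GF+MEV replicates 1 to 5. Replicates 1 to 5 of GF+PBS held 11.2, 3.14, 8.99, 14.1 and 16.5 CPM. The controls held both the lowest and the highest liver, and the treated livers lay between them. The log2 fold change was -0.18 (SE 0.45, edgeR adjusted p = 0.80). The interval of the difference in log2 CPM, -0.92 to 1.01, includes a rise of the size measured for *Atf3*.

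Outside the Jun family, *Maff* at 3.87 ± 1.47 CPM per kilobase (SD, n = 5) stood between *Jund* and *Jun* in GF+PBS livers, within the spread of both. *Egr1* at 2.41 ± 1.14 CPM per kilobase came after *Jun*, with overlapping spreads. *Fosl2* at 0.609 ± 0.134 and *Atf3* at 0.409 ± 0.128 CPM per kilobase were lowest. In GF+MEV livers *Maff* at 9.96 ± 1.55 came after *Jun* and *Junb*, above *Jund*. *Egr1* followed at 2.13 ± 0.544, and *Atf3* at 0.820 ± 0.123 and *Fosl2* at 0.807 ± 0.193 CPM per kilobase did not differ beyond their spread.

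The spread between livers differed among the genes. The coefficient of variation of the CPM in GF+PBS was widest for *Egr1*, 47.6%, and narrowest for *Junb*, 17%. In GF+MEV it was between 13.0% for *Junb* and 25.6% for *Egr1*. The treated livers kept much the same order from gene to gene: replicate 1 held the highest value of every tested gene but *Fosl2*, and replicate 3 the lowest of *Jun*, *Jund*, *Atf3*, *Egr1* and *Maff*. Among the controls replicates 4 and 5 were alike, with a root mean square (RMS) difference of 0.21 in log2 CPM over the 7 genes. Replicates 1 and 3 differed by 0.45, and all other pairs of controls by 0.60 to 0.99. Likeness was not particular to the controls, since pairs of treated livers differed by 0.23 to 0.67. No treated livers were summed. When the counts of control replicates 1 and 3, and of 4 and 5, were summed so that each pair counted as 1 sample, the same 4 genes were called, with edgeR adjusted p of 2.1e-05 for *Jun*, 0.0022 for *Maff*, 0.025 for *Jund* and 0.042 for *Atf3*.

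To place each profile among all genes, the 3 genes whose log2 CPM over the 10 livers, centred on their means, lay nearest were listed for each factor, out of 11834 genes that averaged 1 CPM or more. Nearest to *Jun* were *Btg2*, an antiproliferative early gene, with an RMS difference of 0.26, then *Arl4d* at 0.27 and *Trp53inp1*, a p53-induced stress gene, at 0.36. *Btg2* held 50.1 and 8.47 CPM in GF+MEV and GF+PBS, *Arl4d* 139 and 27.0 CPM, and *Trp53inp1* 173 and 32.7 CPM. Nearest to *Maff* were genes of the fasted liver: *Ppargc1a*, a coactivator of gluconeogenic genes, at 0.20, *Pck1*, the gluconeogenic enzyme PEPCK, at 0.25 and *Angptl4*, an inhibitor of lipoprotein lipase, at 0.25. *Pck1* held 6920 CPM in GF+MEV and 2120 CPM in GF+PBS, with a log2 fold change of 1.71 against 1.36 for *Maff*. Nearest to *Atf3* were *Zfp612* at 0.21, *Foxo1*, a factor that insulin keeps out of the nucleus, at 0.22 and *Gm45044* at 0.23. For *Jund* they were *Dbf4* at 0.18, *Mup20* at 0.19 and *Slc25a33* at 0.19. The genes nearest to *Junb* (*Morf4l2*, *Papss1* and *Fbxl19*), to *Fosl2* (*Stox2*, *Tbc1d30* and *Tiparp*) and to *Egr1* (*Zfp202*, *Gm14410* and *Xkr6*) were not called. These distances describe 10 livers and mostly reflect the difference between the groups.

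Other leucine zipper partners of AP-1 were examined as a list of 11 genes, of which 7 were tested, 1 rose and 6 did not pass, with a median log2 fold change of 0.04. Over all tested genes, 7.64% were called and 4.12% were called higher. This list and those below were chosen with earlier results of these data known, so their counts are descriptions. *Jdp2*, which represses AP-1 by pairing with Jun proteins, rose from 1.04 ± 0.295 to 3.76 ± 0.861 CPM (log2 fold change 1.85, SE 0.22, edgeR adjusted p = 8.4e-05). The small MAF genes *Mafg* and *Mafk* had log2 fold changes of 0.02 and 0.04, unlike the 1.36 of *Maff*. *Atf2* and *Atf7*, which encode constitutive partners of JUN, had -0.05 and 0.08, and none of these 4 passed the test.

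Of 24 other immediate-early genes, 18 were tested, 9 rose, 3 fell and 6 did not pass, with a median log2 fold change of 0.82. Among all tested genes 7.64% were called in either direction and 4.12% were called higher. *Btg2*, named above as nearest to *Jun*, had the largest rise, 2.56 on the log2 scale (SE 0.18, edgeR adjusted p = 1.3e-07). *Dusp1*, the phosphatase that inactivates JNK and p38, rose from 24.4 ± 5.60 to 104 ± 20.4 CPM (log2 fold change 2.10, edgeR adjusted p = 9.3e-07). *Nr4a1*, an orphan nuclear receptor induced by cAMP, held 4.48 to 18.2 CPM in GF+MEV and 1.94 to 3.48 CPM in GF+PBS (log2 fold change 1.77, edgeR adjusted p = 0.0066). The wide range in GF+MEV left the groups apart. *Ccn2*, a matricellular protein gene, rose by 1.6 on the log2 scale (edgeR adjusted p = 0.00044), and *Ccn1*, of the same family, did not pass at 0.22 (edgeR adjusted p = 0.55). *Myc*, a growth-promoting factor, fell, at -1.5 on the log2 scale (SE 0.54, edgeR adjusted p = 0.041), but its groups overlapped, at 2.99 to 6.01 and 3.19 to 21.9 CPM, and the call was lost in 8 of 18 alternatives. *Ier5l* fell from a mean of 1.45 CPM to 0.354 CPM, at -2.05 on the log2 scale (edgeR adjusted p = 0.012), and at -2.80 without GF+MEV replicate 5. Its level was low, at 0.069 to 0.964 CPM in GF+MEV and 1.11 to 2.33 CPM in GF+PBS, so the size of its fall is uncertain. The third gene that fell was *Ier5*, with -0.59 (edgeR adjusted p = 0.025), named after its value was seen, and its call was lost in 5 of 18 alternatives. *Ier2*, a classical early gene, was at 34.2 ± 4.31 and 33.1 ± 5.32 CPM in GF+MEV and GF+PBS and, like *Egr1*, did not pass.

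**Figure D4:**
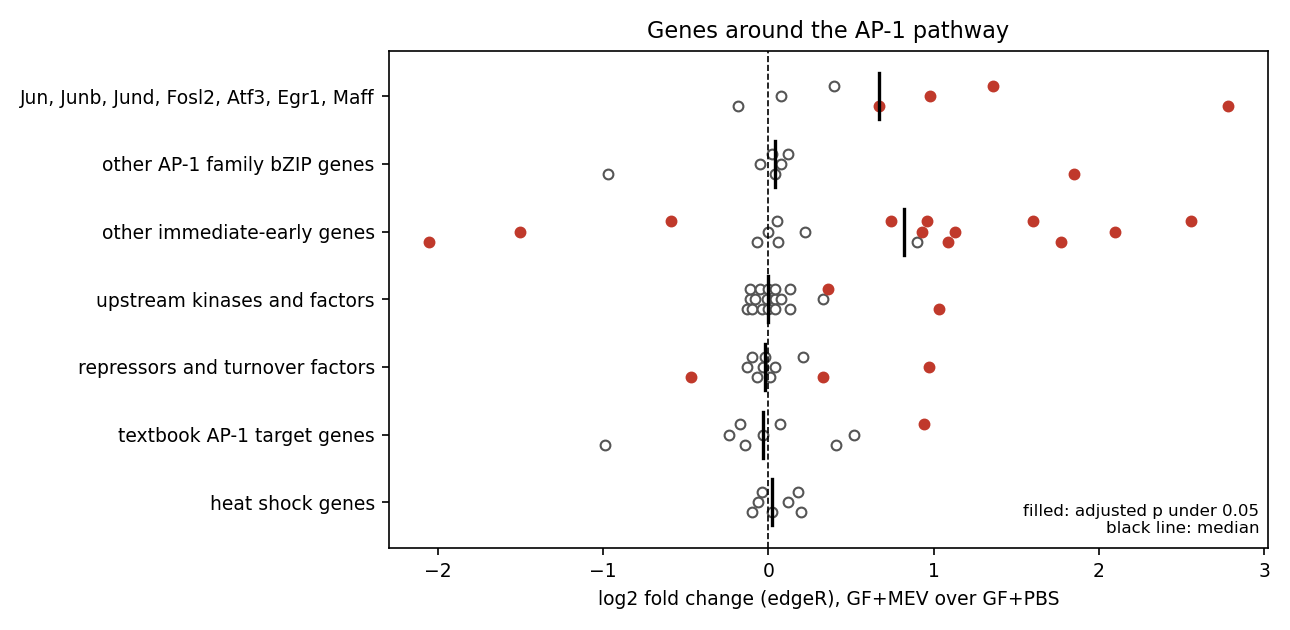
Log2 fold change (edgeR, GF+MEV over GF+PBS) of each tested gene of 7 lists around AP-1, filled where the adjusted p is under 0.05, with a black line at each list's median. The lists of upstream kinases, repressors, textbook targets and heat shock genes have medians between -0.03 and 0.02, and the other immediate-early genes a median of 0.82.

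The kinases and factors that act on these genes were read as a list of 19 genes, all tested, of which 2 rose and 17 did not pass, with a median log2 fold change of -0.00. For comparison, 4.12% of all tested genes were called higher. *Map2k6*, a kinase that activates p38, rose from 7.26 ± 2.05 to 14.9 ± 4.79 CPM (log2 fold change 1.03, SE 0.26, edgeR adjusted p = 0.0083). *Elk4*, a partner of serum response factor, had 0.36 (edgeR adjusted p = 0.048) and lost its call in 12 of 18 alternatives. *Mapk8*, which encodes the JNK1 kinase that phosphorylates JUN, was at 20.8 ± 0.617 and 20.2 ± 1.64 CPM, with a log2 fold change of 0.04. *Srf*, the serum response factor gene, was at 16.7 ± 2.0 and 17.2 ± 1.30 CPM. RNA levels do not report kinase activity.

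Of 12 repressors and turnover factors, 11 were tested, 2 rose, 1 fell and 8 did not pass, where 7.64% of all tested genes were called. *Dusp4*, a nuclear MAP kinase phosphatase, rose by 0.97 on the log2 scale (edgeR adjusted p = 0.0092). *Itch*, a ubiquitin ligase of JUN proteins, had 0.33 (edgeR adjusted p = 0.037) and *Nab2*, a corepressor of EGR1, -0.47 (edgeR adjusted p = 0.041). These calls were lost in 7 and 9 of 18 alternatives, and 1050 of the 2941 exonic bases of *Nab2* overlap an antisense gene. Of 17 textbook targets of AP-1, 9 were tested, 1 rose and 8 did not pass, with a median of -0.03. The share called higher over all tested genes was 4.12%. *Egfr*, the epidermal growth factor receptor gene, rose from 361 ± 117 to 693 ± 158 CPM (log2 fold change 0.94, SE 0.23, edgeR adjusted p = 0.0054), with an overlap between the groups, and with the alike controls summed its adjusted p was 0.054. *Ccnd1*, the cyclin D1 gene, had -0.14 (edgeR adjusted p = 0.75). None of the 7 tested heat shock genes passed, under edgeR or the alternatives run, and the summed level of the list was 885 to 1010 CPM in GF+MEV and 762 to 902 CPM in GF+PBS.

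Cell type markers were read beside these results. Hepatocyte markers summed to between 97400 and 117000 CPM in GF+MEV and between 101000 and 117000 CPM in GF+PBS and were abundant in all 10 libraries, and 3 of 8 rose, by at most 0.45 on the log2 scale. None of 8 Kupffer cell markers was called, with sums of 256 to 484 and 295 to 421 CPM. None of 8 stellate cell markers was called (167 to 245 and 187 to 211 CPM), and of 7 endothelial markers 1 rose and 1 fell (112 to 180 and 137 to 186 CPM). Of 4 tested leukocyte markers 2 fell, with sums of 7.11 to 14.6 and 11.5 to 15.3 CPM. None of 5 tested skeletal muscle markers was called, with a median log2 fold change of -0.76, and their sums ran from 248 to 342 CPM in GF+MEV and over a wider range, 209 to 765 CPM, in GF+PBS. Biliary markers summed to 28.1 to 79.3 CPM in GF+MEV and 23.2 to 29.7 CPM in GF+PBS. Among the 3 biliary markers tested, *Krt19* rose by 3.87 on the log2 scale (edgeR adjusted p = 0.00063), from 0.56 to 8.20 CPM. Its GF+MEV livers ranged widely, from 0.964 to 16.8 CPM. The other markers did not pass: *Sox9* had -0.98 (edgeR adjusted p = 0.10) and *Spp1* 0.52 (edgeR adjusted p = 0.13). *Spp1* held the largest part of the sum, at 35.7 CPM in GF+MEV and 24.8 CPM in GF+PBS, and is also in the list of textbook targets. The part of these cells in the rise of *Jun* and the other factors was not tested. GF+MEV replicate 2 had the lowest scaling factor, 0.8902 against 0.9775 to 1.043 in the other libraries, and without any 1 of the 10 livers the same 4 factors were called.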

How the data were processed

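Total RNA from whole liver was made into libraries with the NEBNext Ultra RNA kit. Per the labels and methods, the authors used bcl2fastq 2.17, aligned reads to GRCm38 with STAR 2.7.3a, counted them per gene with HTSeq, and removed genes with fewer than 20 counts over all samples. The deposited values are raw counts per Ensembl gene, not normalized. The table held 5 further columns that match no described sample, and these were not used.

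Genes with at least 20 summed counts (12147 of 12148) were tested in R 4.3.3 with edgeR 4.0.16, using TMM scaling and a quasi-likelihood fit on group alone, with Benjamini-Hochberg adjustment and a threshold of 0.05. Standard errors were computed on log2 CPM (prior count 2). The study used DESeq2, which was run here (1.42.0) as an alternative, with limma-voom (3.58.1), other scalings and filters, a block on mouse number, alike controls summed, and each liver left out. The fits of these 3 tools were tested on simulated counts. A value of its own, such as a ratio, was tested over all 252 labelings of the mice (exact permutation, two-sided). Exon lengths came from GENCODE, in which 12138 of 12148 identifiers had a symbol, and promoters from RefSeq. Windows of 6 of the 7 tested factors were searched. Windows on chromosome 18, which holds *Egr1*, were left out for the factors but kept in the shares over all windows. The windows gave 250 bases before each start.

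The 8 factors and all lists were chosen with earlier results of these data known. Named genes were the 8 factors, at most 6 called genes per pathway list with the largest change, and the 3 nearest profiles of each factor. Of 5 ratios set out at the start, 3 needed *Fos* and were not run. One gene of a pathway list is not reported here.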

Additional observations from a re-analysis of the deposited data

Results flagged for a closer look

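*Atf3* in GF+MEV replicate 3 stood apart from the other livers of its group, at 1.30 CPM where the other 4 held 1.80 to 1.95 CPM. The gap was 0.764 of the range of the group, above the 95% limit of Dixon's test for 5 samples. Chance flags about 1 in 20 groups, and 16 groups were tested. This liver was still above every GF+PBS liver.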

How the results depend on the processing

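The 4 called factors kept their call and direction under all alternatives that could test them; at least 10 counts in every library removed *Atf3* from the test, which left 3. Leaving out each liver gave log2 fold changes of 2.65 to 2.93 for *Jun*, 1.23 to 1.54 for *Maff*, 0.812 to 1.09 for *Atf3* (adjusted p up to 0.048) and 0.573 to 0.789 for *Jund* (up to 0.032). Those of *Junb* ran from -0.0025 to 0.156, negative without GF+PBS replicate 2, and those of *Egr1* from -0.418 to 0.0138, positive without GF+PBS replicate 5. Over all genes 928 were called, 696 to 926 without 1 liver, 1201 by DESeq2, 946 by limma-voom and 561 with the alike controls summed, where 3 samples replaced 5. Upper quartile scaling called 428 higher and 612 lower, against 500 and 428. With the replicate block, 792 genes were called, *Jun* at 2.79, *Maff* at 1.40, *Atf3* at 1.0 and *Jund* at 0.682. Same-numbered livers did not deviate together (correlations -0.188 to 0.166), so the numbers are not shown to pair the mice, and 2 GF+MEV livers and 1 GF+PBS liver correlated best with their own number. Of 14 pathway genes, 8 were called under every alternative that could test them. Among these 8, *Ier5l* was tested in 17 alternatives, since at least 10 counts in every library removed it. Without 1 liver, the adjusted p reached 0.12 for *Myc* (lost without GF+MEV replicate 1, 2, 3 or 5 or GF+PBS replicate 4 or 5), 0.064 for *Ier5* (GF+MEV 1, 4, 5, GF+PBS 3), 0.10 for *Elk4* (any but GF+PBS 5), 0.11 for *Nab2* (any but GF+MEV 1 and 2 and GF+PBS 2) and 0.086 for *Itch* (GF+MEV 2 to 5, GF+PBS 3, 4). The cause was not tested. *Atf3* rested on 8 to 34 reads per library.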
